A study of Mus musculus with 12 samples.

Results

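Ret and the 4 GFRα co-receptor genes, Gfra1, Gfra2, Gfra3 and Gfra4, were followed through the preparation of sensory neurons from mouse dorsal root ganglia (DRG). They were chosen by name, as the genes of 1 receptor system, and are 5 of the 24490 genes listed in the expression table. Polyadenylated RNA was sequenced from 12 samples of adult male C57Bl/6 mice in 3 groups of 4. Intact ganglia were frozen whole, with 1 mouse per sample, and unsorted samples were enzymatically dissociated ganglia, with 2 mice pooled per sample. MACS-sorted samples, with 8 mice pooled per sample, were the cells of the same kind of dissociation that passed a magnetic column after non-neuronal cells had been labelled with an antibody cocktail and retained. No transgene or treatment is given for any of the groups. MACS-sorted cells are therefore defined by what was removed and not by a neuronal marker. Levels are in FPKM, fragments scaled to transcript length and to the mapped fragments of a sample, so that genes can be compared per length. All levels are relative to the RNA of a sample, and in such bulk samples fewer cells of a type and less RNA per cell cannot be told apart.

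RET is the receptor tyrosine kinase through which the glial cell line-derived neurotrophic factor (GDNF) family of ligands acts on sensory neurons. The ligands do not bind RET alone. They first bind a GFRα protein tethered to the outer membrane by a lipid anchor, and the complex then activates RET. GFRα1 is the preferred co-receptor of GDNF, GFRα2 of neurturin, GFRα3 of artemin and GFRα4 of persephin. In the DRG, RET is known from non-peptidergic nociceptors, from C low-threshold mechanoreceptors and from some large-diameter mechanoreceptors, while GFRα3 is mainly known from peptidergic nociceptors.

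In mm10 coordinates, Ret lies on the minus strand of chromosome 6 from 118151748 to 118197744, and its longest coding transcript has 20 exons and 5456 bases. Gfra1 lies on the minus strand of chromosome 19 from 58235581 to 58455398 and Gfra2 on the plus strand of chromosome 14 from 70890130 to 70979838. Gfra3 occupies the minus strand of chromosome 18 from 34689903 to 34720387. Gfra4 is the most compact of the genes, on the minus strand of chromosome 2 from 131039632 to 131043088, with a longest coding transcript of 1426 bases. The values are given per gene, so single exons and untranslated regions are not told apart. An annotated antisense gene, Gm16277, overlaps Gfra1, and a microRNA gene, Mir6973b, lies within Gfra4 on the same strand. Whether strand was used in the quantification is not given in the sources used here.

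The samples were checked against markers of the cells they are labelled as. All 9 pan-neuronal genes on the marker list were tested in MACS-sorted vs. unsorted samples, and 4 were higher, 2 were lower and 3 did not pass. Among all genes tested there, 18.8% were higher and 27.7% lower at an adjusted p-value under 0.05 (limma). Avil, which encodes advillin, went from 228 to 349 FPKM, and Snap25, a synaptic vesicle fusion gene, from 605 to 314 FPKM. The summed level was 3850 to 4915 FPKM after sorting and 4246 to 4572 FPKM before. The sum of 7 satellite glia markers was 89.9 to 195 FPKM in MACS-sorted samples and 2124 to 2679 FPKM in unsorted samples, and 7 of 7 were lower. The sum of 8 Schwann cell markers was 546 to 1265 FPKM after sorting and 2369 to 3637 FPKM before, and 7 of 8 were lower. Markers of red blood cells went the other way, at 1678 to 15360 FPKM in MACS-sorted and 112 to 400 FPKM in unsorted samples. Of the other cells, 5 of 6 fibroblast markers and the 2 of 6 macrophage markers that could be tested were lower after sorting, and 0 of 6 endothelial markers passed the test, with sums of 13.7 to 75.0 FPKM after sorting and 42.2 to 54.0 FPKM before. The sum of 6 skeletal muscle markers was 2819 FPKM in intact replicate 1 and 14.8 to 63.4 FPKM in the other intact samples. No satellite glia or Schwann cell marker was listed at 0 in all MACS-sorted samples, and the part of the remaining glial RNA in the values below was not tested. Estimated depth was 13420000 to 19340000 fragments per sample.

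Ret was the most abundant of the genes in every sample, and the order Ret, Gfra2, Gfra1, Gfra3, Gfra4 held for the group means of all 3 groups. In intact DRG the means were 104 ± 11.5 FPKM for Ret, 46.6 ± 2.68 FPKM for Gfra2, 30.5 ± 2.41 FPKM for Gfra1, 19.9 ± 1.82 FPKM for Gfra3 and 5.55 ± 0.259 FPKM for Gfra4 (SD, n = 4). Ret therefore stood above 98.0% of all listed genes in intact DRG, and Gfra4 above 67.2%. Neighbours in the order had separate ranges in each group, except Gfra1 and Gfra3 in MACS-sorted samples, where Gfra1 was the higher in 3 of 4 samples. Counting a gene as expressed when all 4 samples of a group exceed 5 FPKM, Ret, Gfra1, Gfra2 and Gfra3 were expressed in each group. Gfra4 met this limit in intact and unsorted DRG but in only 2 of 4 MACS-sorted samples. Its values rested on an estimated 90 to 179 fragments per sample, for which the counting error reaches 10.5%, whereas Ret rested on at least 7458.

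**Figure D1:**
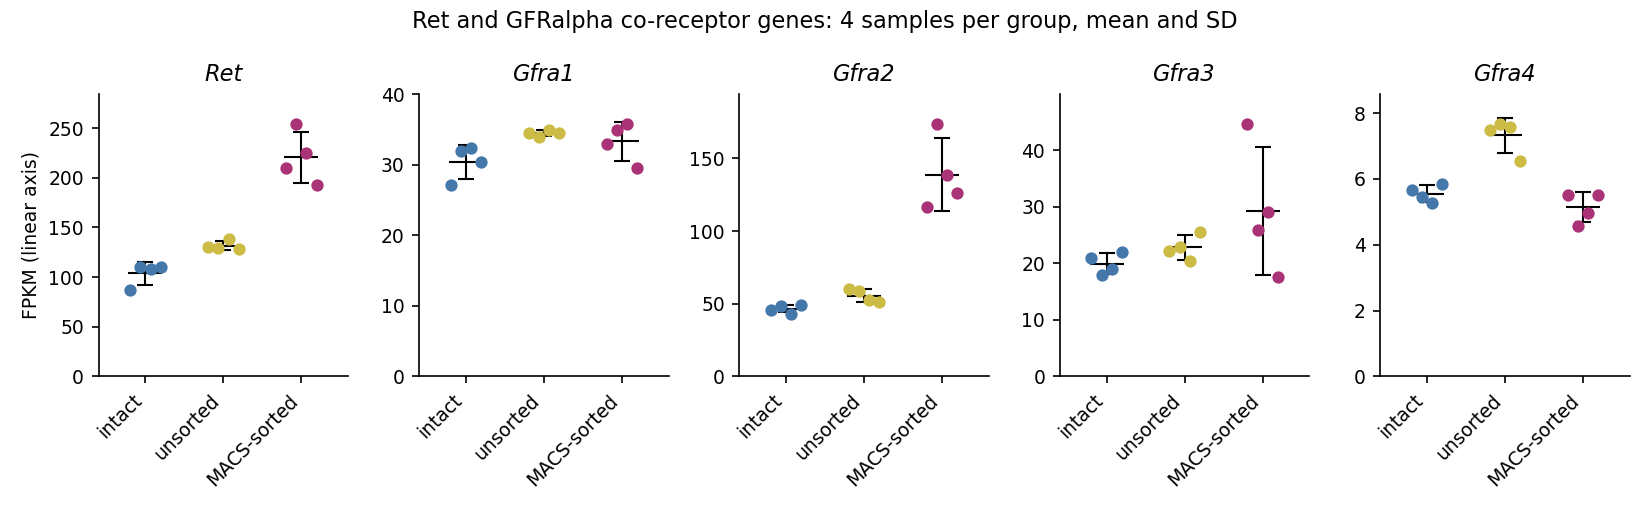
Expression (FPKM, linear axes from 0) of Ret and the GFRα genes in intact, unsorted and MACS-sorted samples. Each point is 1 sample (n = 4 per group), and lines show the mean and SD. MACS-sorted samples lie above all others for Ret and Gfra2, while Gfra4 is highest in unsorted samples.

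The first question was what the sort changed, which is the comparison of MACS-sorted with unsorted samples. Of the 5 genes, 3 were called different, which required an adjusted p-value under 0.05 (limma), group means more than 0.5 apart as a log2 ratio, and over 5 FPKM in the group with the higher mean. Gfra2 and Ret were higher, and Gfra4 was lower. Among all 12038 genes tested, 8.15% were called higher and 12.5% lower. The groups did not overlap for these 3 genes, as for 18.4% of all genes in the higher and 27.8% in the lower direction.

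Gfra2, which encodes the neurturin co-receptor, rose most. It was at 60.0, 58.6, 52.3 and 51.4 FPKM in unsorted replicates 1 to 4 and rose to 117, 174, 139 and 126 FPKM in the 4 MACS-sorted replicates. The lowest sorted sample was thus well above the highest unsorted one. The means were 55.6 ± 4.33 and 139 ± 24.9 FPKM (SD, n = 4), a 2.50-fold difference. The log2-fold change was 1.31 ± 0.12 (SE; limma, adjusted p = 2.3e-05).

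Ret, the shared signalling receptor, was at 131, 129, 139 and 129 FPKM in unsorted replicates 1 to 4. In MACS-sorted replicates 1 to 4 it was at 210.0, 254, 225 and 193 FPKM, again with no overlap. The means of 132 ± 4.55 and 221 ± 26.0 FPKM (SD, n = 4) differed 1.67-fold. The log2-fold change was 0.74 ± 0.088 (SE; limma, adjusted p = 1.1e-04). After sorting, Ret stood above 99.4% and Gfra2 above 98.6% of all listed genes.

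Gfra4, which encodes the persephin co-receptor, went the other way. Unsorted replicates 1 to 4 were at 7.50, 7.67, 7.58 and 6.54 FPKM, and the sorted replicates had 5.51, 4.56, 4.98 and 5.52 FPKM. All sorted samples were below all unsorted samples, although by little more than 1 FPKM between the nearest. The log2-fold change was −0.50 ± 0.098 (SE; limma, adjusted p = 0.0022), and the log2 ratio of means was −0.51, just past the limit. The adjusted p-value stayed between 0.00064 and 0.014 in the 19 alternatives, but the fold limit was met in only 10 of them.

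Gfra1 and Gfra3 did not pass the test. Gfra1, which encodes the GDNF co-receptor, was at 34.6, 34.0, 35.0 and 34.6 FPKM in unsorted replicates 1 to 4. The MACS-sorted replicates had 32.9, 35.0, 35.8 and 29.6 FPKM in that order. The groups overlapped, with means of 34.5 ± 0.404 and 33.3 ± 2.78 FPKM (SD, n = 4). The 95% interval of the log2-fold change was −0.21 to 0.10 (limma, adjusted p = 0.55), so that a change as large as that of Ret lies outside it.

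Gfra3, which encodes the artemin co-receptor, was at 22.2, 22.9, 20.5 and 25.6 FPKM in unsorted replicates 1 to 4. In MACS-sorted replicates 1 to 4 it was at 44.6, 25.8, 29.1 and 17.6 FPKM, which spans levels from below the lowest to far above the highest unsorted sample. Its coefficient of variation of 38.7% in MACS-sorted samples compares with 8.35% to 18.0% for the other 4 genes there. The log2-fold change was 0.29, with a 95% interval of −0.23 to 0.81 (limma, adjusted p = 0.34). This result depended on which sorted libraries were included. Without MACS-sorted replicate 4, the log2-fold change was 0.50 and Gfra3 was called higher (limma, adjusted p = 0.038), and without MACS-sorted replicate 1 it was 0.06.

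**Figure D2:**
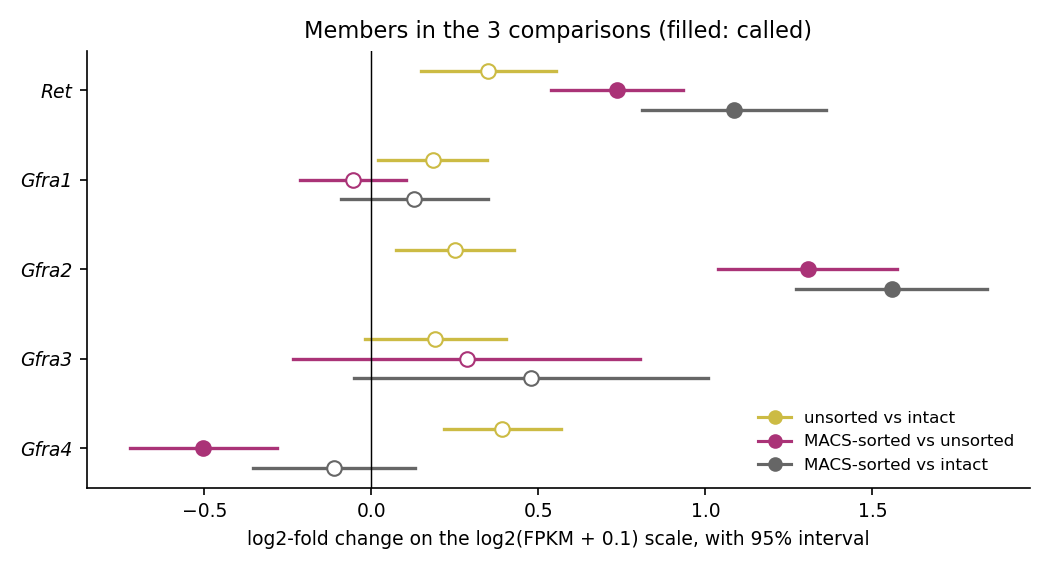
Log2-fold change on the log2(FPKM + 0.1) scale of each gene in the 3 comparisons, with its 95% interval from limma. Filled points passed all criteria for a call. For Gfra2 the change is 1.31 in MACS-sorted vs. unsorted samples and 0.25 in unsorted vs. intact samples.

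The second question was how much had already changed with dissociation. In unsorted vs. intact DRG, 3 of the 5 genes were higher at an adjusted p-value under 0.05, where 14.8% of the 12392 genes tested were. None of the 3 reached the fold limit, so 0 were called, against 7.04% of all genes. Ret was at 86.6, 110.1, 109 and 110.0 FPKM in intact replicates 1 to 4, all below the unsorted samples. Its log2-fold change was 0.35 ± 0.089 (SE; limma, adjusted p = 0.025), and 0.27 (adjusted p = 0.0019) without intact replicate 1, the sample with muscle RNA. Ret passed the test in 13 of the 19 alternatives, and failed it when any 1 unsorted replicate was left out (adjusted p = 0.058 to 0.066). The part of muscle RNA in the lower Ret value of that sample was not tested.

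Gfra4 was at 5.68, 5.44, 5.25 and 5.84 FPKM in intact replicates 1 to 4, below each unsorted sample. It had the largest change of the 5 genes on dissociation, with a log2-fold change of 0.39 ± 0.077 (SE; limma, adjusted p = 0.010). Gfra4 thus went up with dissociation and down with sorting, and MACS-sorted and intact samples overlapped. Both comparisons share the unsorted samples.

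Gfra2 was at 45.8, 48.5, 43.2 and 49.0 FPKM in intact replicates 1 to 4, again below each unsorted sample. Its log2-fold change of 0.25 ± 0.078 (SE) passed the test narrowly (limma, adjusted p = 0.048), and in only 6 of the 19 alternatives. Gfra1, at 27.1, 32.0, 32.4 and 30.4 FPKM in intact replicates 1 to 4, did not overlap with the unsorted samples but did not pass the test over all genes. Its log2-fold change was 0.18, with a 95% interval of 0.02 to 0.35 (limma, adjusted p = 0.097). Gfra3, at 20.9, 17.9, 19.0 and 22.0 FPKM in intact replicates 1 to 4, overlapped with the unsorted samples. Its log2-fold change was 0.19, with a 95% interval of −0.02 to 0.40 (limma, adjusted p = 0.17). So 4 of the 5 genes had higher values in all unsorted than in all intact samples, a pattern found in 20.8% of the genes tested.

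Over the whole preparation, from intact to MACS-sorted, Ret and Gfra2 were called higher and the other 3 genes were not called. Among the 12234 genes tested, 7.54% were called higher and 10.7% lower. This comparison shares its samples with the other comparisons and is no separate evidence. The log2-fold change was 1.56 ± 0.13 for Gfra2 (SE; limma, adjusted p = 2.4e-05) and 1.09 ± 0.12 for Ret (adjusted p = 1.4e-04). For Gfra3 it was 0.48, with a 95% interval of −0.05 to 1.01 (adjusted p = 0.15), and 0.70 (adjusted p = 0.018) without MACS-sorted replicate 4. Gfra1 differed by 0.13 (adjusted p = 0.34) and Gfra4 by −0.11 (adjusted p = 0.46).

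Since co-receptors work together with RET, the level of each relative to Ret was compared within samples, where the scaling between samples drops out. Gfra2 rose more than Ret with sorting. It was at 0.422 ± 0.040 of the Ret level in unsorted and at 0.628 ± 0.055 in MACS-sorted samples (SD, n = 4). On the log2 scale this ratio differed by 0.57 (exact permutation test, two-sided p = 0.0286, adjusted p = 0.049 over 12 ratios). All 4 sorted samples were higher, and 0.0286 is the smallest p-value that 4 samples against 4 allow. The adjusted value depends on how many of the 12 ratios reach that smallest p-value. These include ratios of MACS-sorted vs. intact samples, so an adjusted p of 0.049 rests in part on shared samples.

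Gfra1 and Gfra4 fell behind Ret. Gfra1 was at 0.262 ± 0.0069 of Ret in unsorted and 0.152 ± 0.0099 in MACS-sorted samples, a log2 difference of −0.79. Gfra4 went from 0.0556 ± 0.0037 to 0.0237 ± 0.0047 of Ret, a log2 difference of −1.24. Both ratios were lower in all 4 sorted samples (exact permutation test, two-sided p = 0.0286, adjusted p = 0.049 each). Gfra3 to Ret differed by −0.45 (exact permutation test, two-sided p = 0.20, adjusted p = 0.27), with a range in sorted samples of 0.091 to 0.213 of Ret that held all of the unsorted values.

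With dissociation alone, 1 of the 4 ratios separated the groups. Gfra1 to Ret went from 0.294 ± 0.015 in intact to 0.262 ± 0.0069 in unsorted samples, a log2 difference of −0.17 (exact permutation test, two-sided p = 0.0286, adjusted p = 0.049). For Gfra2, Gfra3 and Gfra4 the log2 differences were −0.10, −0.16 and 0.04 (exact permutation test, two-sided p = 0.49, 0.40 and 0.74). Against intact DRG, the MACS-sorted ratio was higher by 0.47 for Gfra2, lower by −0.96 for Gfra1 and by −1.20 for Gfra4 (two-sided p = 0.0286 each, exact permutation test), and the difference of −0.61 for Gfra3 did not pass (p = 0.11).

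The make-up of the co-receptor pool can also be given as shares of the summed GFRα FPKM. That sum was 103 ± 3.66 FPKM in intact DRG, 120.2 ± 4.21 FPKM after dissociation and 207 ± 25.0 FPKM after sorting (SD, n = 4). Gfra2 made up 45.4% ± 1.50 of it in intact DRG, 46.2% ± 2.16 after dissociation and 67.0% ± 6.29 after sorting. The share of Gfra1 was 29.7% ± 2.35, 28.7% ± 1.28 and 16.2% ± 1.10 in the same order. Gfra3 held 19.4% ± 1.67, 19.0% ± 1.84 and 14.2% ± 5.69, and Gfra4 5.41% ± 0.22, 6.09% ± 0.43 and 2.53% ± 0.51. The share of Gfra2 in all sorted samples lay above the range of all other samples, and those of Gfra1 and Gfra4 lay below it. For Gfra3 the other samples ranged from 17.3% to 21.7%, and the sorted samples fell on both sides. MACS-sorted replicate 1 was above that range, at 22.3%, and replicates 2 to 4 were below it, at 10.8%, 14.0% and 9.83%.

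The summed GFRα level stayed close to that of Ret. It was 0.996 ± 0.103 of Ret in intact DRG, 0.913 ± 0.056 after dissociation and 0.937 ± 0.011 after sorting (SD, n = 4). In MACS-sorted replicates 1 to 4 it was 0.951, 0.940, 0.929 and 0.926 of Ret, although Gfra3 alone ranged from 9.83% to 22.3% of the sum there. Only intact replicate 1, at 1.15, had more summed GFRα than Ret. These sums are a description, since transcript levels do not give the number of receptor proteins.

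**Figure D3:**
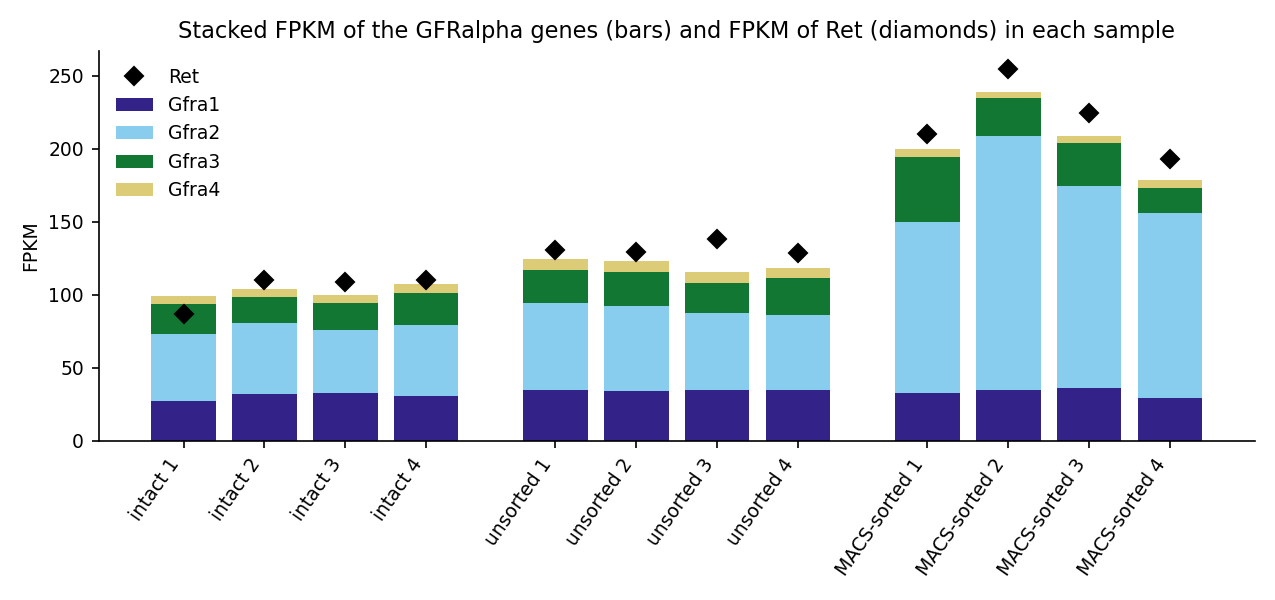
FPKM of the GFRα genes stacked for each of the 12 samples (bars, from 0), with the FPKM of Ret as diamonds. The Gfra2 segment grows from 46.2% of the stack in unsorted to 67.0% in MACS-sorted samples, and the stack stays near the Ret diamond.

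MACS-sorted samples were not alike in their co-receptors, and genes of neuron subsets varied with them. Gfra3 was highest in replicate 1 and lowest in replicate 4. Trpv1, the capsaicin receptor of peptidergic nociceptors, had 65.0, 52.6, 52.5 and 34.6 FPKM in the 4 MACS-sorted replicates. Tac1, the substance P precursor, was at 299, 237, 220 and 152 FPKM, and Adcyap1, the precursor of the neuropeptide PACAP, at 58.9, 42.3, 46.7 and 26.9 FPKM. Each of these was also highest in replicate 1 and lowest in replicate 4. So was Calca, the precursor of the neuropeptide CGRP, at 1129, 992, 917 and 708 FPKM. Calcb, which encodes a second form of CGRP, was at 157, 199, 186 and 143 FPKM, lowest in replicate 4 but highest in replicate 2.

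Gfra2 was highest in MACS-sorted replicate 2 and lowest in replicate 1. Th, which encodes tyrosine hydroxylase and marks C low-threshold mechanoreceptors, had 89.7, 238, 119 and 205 FPKM in the 4 MACS-sorted replicates. Slc17a8, the vesicular glutamate transporter of these cells, was at 8.43, 15.5, 11.4 and 15.5 FPKM. Fam19a4 and Zfp521, a secreted protein and a zinc finger protein of these cells, were at 35.2, 81.1, 52.3 and 83.9 FPKM and at 9.57, 18.0, 15.1 and 19.4 FPKM. All 4 were lowest in replicate 1, as was Gfra2, but replicate 4 was near or above replicate 2 for them and not for Gfra2. The summed level of the 9 non-peptidergic nociceptor genes was 1124, 1079, 1108 and 707 FPKM, so it too was highest in replicate 1 and lowest in replicate 4. Mrgprd, a receptor of these neurons, was lowest in replicate 4 as well, at 119, 124, 118 and 59.9 FPKM.

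MACS-sorted replicate 4, without which Gfra3 would be called, also stood apart in other cell types. Its Schwann cell markers summed to 1265 FPKM, against 546 to 642 FPKM in the other sorted samples, and its satellite glia markers to 195 FPKM, against 89.9 to 128 FPKM. Its fibroblast markers were at 32.4 FPKM, against 7.62 to 13.9 FPKM, and its pan-neuronal sum of 3850 FPKM was the lowest of the 4. Red blood cell markers were uneven too, at 1678, 2532, 12538 and 15360 FPKM in replicates 1 to 4. The part of these other cells in the differences between replicates was not tested.

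**Figure D4:**
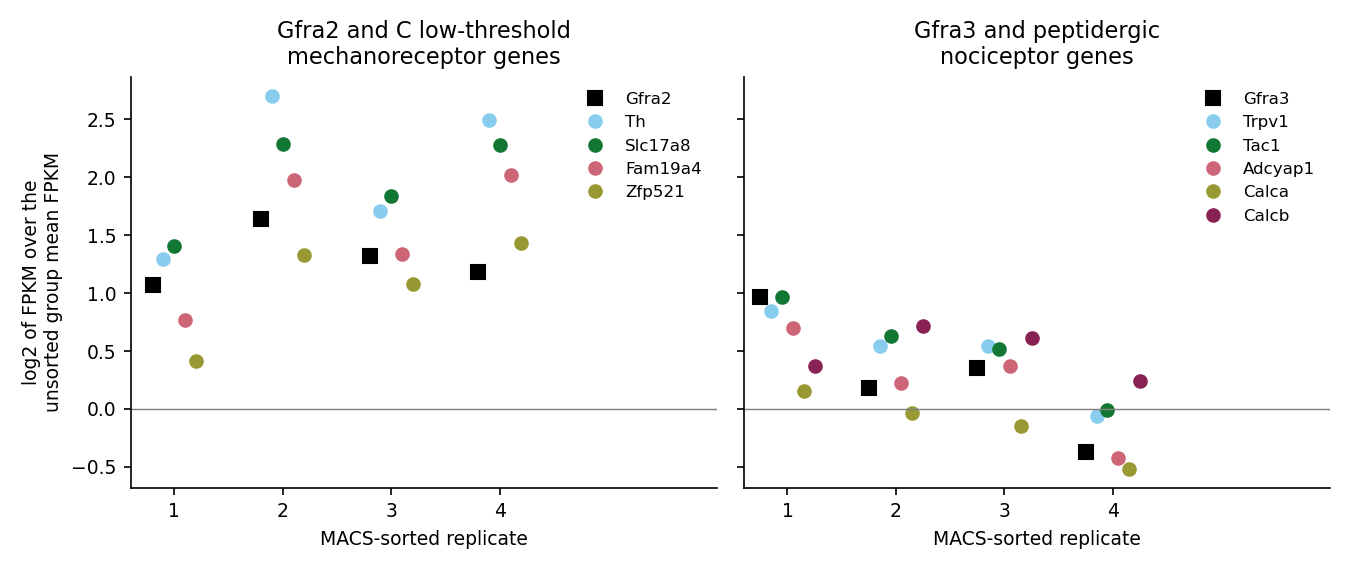
Log2 of the FPKM in each MACS-sorted replicate over the mean of the unsorted group, for Gfra2 with C low-threshold mechanoreceptor genes and Gfra3 with peptidergic nociceptor genes. Squares are Gfra2 or Gfra3 and circles the other genes, 1 point per sample. Gfra3 is highest in replicate 1 and lowest in replicate 4, as are Trpv1, Tac1, Adcyap1 and Calca, but not Calcb.

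The genes whose log2 levels followed those of each receptor most closely over the 12 samples were picked by Pearson correlation among 8263 genes, as a description. The 12 points share their groups, so a gene that differs between groups in the same way scores high. For Ret they were Apba1 (r = 0.996), which encodes an adaptor protein, Crmp1 (0.995), a collapsin response mediator, and Arhgef18 (0.994), a guanine nucleotide exchange factor. For Gfra2 they were Neurl1a (0.988), Lrrc75b (0.986) and Pou4f1 (0.986), a transcription factor of sensory neurons. Pou4f1 was at 52.0 ± 2.50 FPKM in unsorted and 80.7 ± 8.76 FPKM in MACS-sorted samples (SD, n = 4).

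Gfra1 was followed by Bace1 (r = 0.966), the beta-secretase, Mtmr7 (0.964) and Chrnb2 (0.954), a nicotinic receptor subunit. Gfra3 was followed by Dkk3 (0.918), Adcyap1 (0.910) and Rundc3b (0.898), and Gfra4 by Rab3ip (0.932), Rem2 (0.926) and Ext1 (0.922), an enzyme of heparan sulphate synthesis. Among the receptor genes themselves, Ret and Gfra2 were the most alike (r = 0.961), and Gfra4 ran against Gfra2 (r = −0.53), Ret (r = −0.41) and Gfra3 (r = −0.16).

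The ligands were close to 0 FPKM in all samples. None of Gdnf, Nrtn, Artn, Pspn and Gdf15 reached the mean of 1 FPKM needed for a test, in any comparison. Nrtn, which encodes neurturin, had the highest mean in intact and unsorted DRG. It was at 0.729 ± 0.384 FPKM in intact DRG, 0.744 ± 0.240 FPKM after dissociation and 0.161 ± 0.111 FPKM after sorting (SD, n = 4), where Gdf15 had the higher mean of 0.341 FPKM. Gdnf was at most 0.102 FPKM and Artn, which encodes artemin, at most 0.379 FPKM in any sample. Pspn, which encodes persephin, was listed at 0 in all but MACS-sorted replicate 2, at 0.447 FPKM. Gdf15, a distant relative, reached 1.30 FPKM in MACS-sorted replicate 1, with no other sample above 0.128 FPKM.

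Other receptors of the ligand family were reduced by the sort where they changed. Gfral, the receptor of GDF15, was listed at 0 in 11 of 12 samples and could not be tested. Gas1, a GFRα-like membrane protein, was at 4.40, 4.14, 2.02 and 1.81 FPKM in unsorted and at most 0.137 FPKM in MACS-sorted samples (limma, adjusted p = 3.6e-05), below the level needed for a call. Sdc3, a proteoglycan that binds GDNF, was called lower, at 52.1 ± 2.40 FPKM in unsorted and 27.2 ± 5.49 FPKM in MACS-sorted samples (SD, n = 4; limma, adjusted p = 3.3e-04). Ncam1, through which GDNF can signal without RET, was at 41.9 ± 1.51 and 37.9 ± 2.50 FPKM and did not pass the test (limma, adjusted p = 0.091).

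Receptors of the neurotrophins, the other main family of growth factors for DRG neurons, moved against Ret and Gfra2. Ntrk2, Ntrk3 and Ngfr were called lower in MACS-sorted vs. unsorted samples, as were 12.5% of all genes. Ntrk2, the receptor of brain-derived neurotrophic factor, was at 37.6 ± 2.64 FPKM in unsorted and 3.37 ± 1.31 FPKM in MACS-sorted samples (SD, n = 4), a log2-fold change of −3.53 (limma, adjusted p = 5.3e-06). Ntrk3, the receptor of neurotrophin-3, and Ngfr, the low-affinity receptor, fell by 1.46 and 1.30 on the log2 scale (limma, adjusted p = 3.7e-05 and 6.1e-06). Ngfr was at 207 ± 8.13 FPKM in unsorted samples, above the level of Ret, and at 84.3 ± 10.6 FPKM in MACS-sorted samples (SD, n = 4). With dissociation, Ntrk2, Ntrk3 and Ngfr were called higher, as were 4.29% of all genes, by 0.59 to 0.62 on the log2 scale. Both comparisons share the unsorted samples.

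Downstream of RET, the adaptors and effectors had no common direction. Of 19 listed, 18 were tested in MACS-sorted vs. unsorted samples, where 5 were higher, 4 were lower and 9 did not pass at an adjusted p-value under 0.05 (18.8% and 27.7% of all genes were higher and lower), with a median log2-fold change of −0.08 against −0.04 for all genes tested. Those called higher were Dok1, Shc1 and Dok4, docking proteins that bind activated RET or other tyrosine kinases. Shc1 went from 35.5 ± 1.72 to 59.6 ± 5.90 FPKM (SD, n = 4), a log2-fold change of 0.74 (limma, adjusted p = 6.6e-05). Dok4, the most abundant of the 3, went from 110.9 ± 2.86 to 184 ± 23.7 FPKM, a log2-fold change of 0.72 (adjusted p = 1.7e-04), and Dok1 from 5.23 ± 0.925 to 12.3 ± 1.02 FPKM, a change of 1.24 (adjusted p = 5.2e-05). Grb10, another adaptor of receptor tyrosine kinases, was called lower, from 8.78 ± 1.01 to 4.65 ± 1.14 FPKM (adjusted p = 0.0012).

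Of 8 listed inhibitors of RET or of its signalling, 6 were tested in MACS-sorted vs. unsorted samples. At an adjusted p-value under 0.05, 1 was higher, 3 were lower and 2 did not pass (18.8% and 27.7% of all genes were higher and lower). Nedd4l, a ubiquitin ligase, was called higher, from 44.0 ± 0.888 to 73.4 ± 7.90 FPKM (SD, n = 4; limma, adjusted p = 8.5e-05). Cbl, the ubiquitin ligase that marks active RET for degradation, was called lower, from 9.60 ± 0.355 to 6.67 ± 0.656 FPKM (adjusted p = 9.9e-04). Its group means were only just far enough apart for a call. With dissociation, 0 of the 7 inhibitors and 0 of the 18 adaptors tested were called, against 7.04% of all genes. At an adjusted p-value under 0.05, 2 adaptors were higher and 1 was lower (14.8% and 7.79% of all genes), and no inhibitor passed.

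Genes that mark the neurons known to carry these receptors were set beside them. Among all genes tested in MACS-sorted vs. unsorted samples, 8.15% were called higher and 12.5% lower. At an adjusted p-value under 0.05, 18.8% were higher and 27.7% lower. Of 9 non-peptidergic nociceptor genes, 8 were called higher in MACS-sorted vs. unsorted samples, with a median log2-fold change of 1.03, between that of Ret (0.74) and that of Gfra2 (1.31). Runx1, a transcription factor of these neurons, rose by 1.23 and P2rx3, an ATP-gated channel, by 0.84 on the log2 scale (limma, adjusted p = 3.5e-06 and 0.0016). All 4 C low-threshold mechanoreceptor genes were called higher, with a median of 1.74. Of 6 peptidergic nociceptor genes, 3 were higher at an adjusted p-value under 0.05, among them Tac1 and Trpv1, and 1 was lower. Calca had a log2-fold change of −0.13 (adjusted p = 0.46), near the value of Gfra1. All 10 large-diameter neuron genes were lower at an adjusted p-value under 0.05, 8 of them called, with a median of −3.34.

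In unsorted vs. intact DRG, 14.8% of all genes tested were higher and 7.79% lower. Of the non-peptidergic genes 1 of 9 was higher, near that share, and of the peptidergic genes 1 of 6. Of the C low-threshold mechanoreceptor genes 2 of 4 were lower, and of the large-diameter neuron genes 7 of 10 were higher. Differences between the lists were not tested. The lists share genes with one another, with Ntrk2 and Ntrk3 also among the large-diameter genes. Whether a change in a receptor gene came from a changed mixture of neurons was not tested.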

How the data were processed

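The authors aligned the reads of polyA-selected libraries (100 bp reads) to mm10 with TopHat2, merged lanes with SAMtools and estimated expression with Cufflinks 2.1.1. The authors deposited FPKM for each gene in each of the 12 samples, and read counts were not used here. Gene annotation came from GENCODE on the same build.

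Groups were compared by limma 3.58.1 (R 4.3.3) after a log2 transform of FPKM + 0.1, with a trended prior variance and Benjamini-Hochberg adjustment over all genes that averaged 1 FPKM or more in the 8 samples compared. All tests were two-sided. The study used CuffDiff, which needs aligned reads, with the same limits for a call. Fold changes on this scale understate those of low genes. The median log2-fold change of all genes was −0.04 in MACS-sorted vs. unsorted samples.

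Depth was estimated from the spacing of low values, with 150-base fragments assumed, and intervals for counting error cover that error only. Whether samples with the same replicate number were prepared together is not stated, and the main fit treated them as unpaired. Unsorted replicates 1 and 2 differed least of 18 within-group pairs (median absolute log2 difference 0.053, against 0.076 to 0.32). P-values measure the spread between samples, each of 1 mouse in intact DRG and of pooled mice in the other groups. The fits and the depth estimate were first tried on simulated data.

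The genes, lists and tests were chosen with earlier results of these data known. The genes named are the 5 receptor genes, the ligands, other ligand receptors, neurotrophin receptors, those adaptors and inhibitors called in MACS-sorted vs. unsorted samples, genes of the neuron subset lists, and the 3 genes most correlated with each receptor gene among those averaging 5 FPKM or more. Some listed genes are left out of the text but kept in all counts. Permutation tests used SciPy 1.17.1.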

Additional observations from a re-analysis of the deposited data

Results flagged for a closer look

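In 27 groups of 4 samples, formed by the levels and ratios of the receptor genes, 2 held a sample far from the other 3, and chance gives about 1 in 20. Ret was at 86.6 FPKM in intact replicate 1, against 109 to 110.1 FPKM in the other intact samples. Gfra4 was at 6.54 FPKM in unsorted replicate 4, against 7.50 to 7.67 FPKM in the other unsorted samples.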

How the results depend on the processing

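Ret and Gfra2 were called higher in MACS-sorted samples in every alternative, 19 against unsorted and 18 against intact DRG, with log2-fold changes of 0.66 to 0.80 and 1.19 to 1.38 against unsorted DRG. Quantile normalization moved the median of all genes to 0.10 in that comparison. Gfra1, which did not pass the test, changed sign there under median-ratio size factors (0.0070), and ranged from −0.091 to 6.2e-04 with each replicate left out. Gfra4 changed sign in MACS-sorted vs. intact samples under quantile normalization (0.12). Its ratio to Ret in unsorted vs. intact samples turned to −0.0041 with a pseudocount of 1 and ranged from −0.0084 to 0.14 with each replicate left out. The call of Gfra4 in MACS-sorted vs. unsorted samples was lost in 9 of 19 alternatives through the fold limit. Gfra3 ranged with each replicate left out from 0.06 to 0.50 against unsorted and from 0.25 to 0.70 against intact DRG, and passed without MACS-sorted replicate 4.

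In unsorted vs. intact DRG, Ret no longer passed under quantile normalization (0.32) and with unsorted replicates 1 and 2 averaged (0.36), and without any single unsorted replicate (0.27 to 0.38 over all replicates left out, adjusted p = 0.0019 to 0.066). Gfra2 no longer passed at the same log2-fold change of 0.25 with no filter, with all 12 samples in the fit and without the trend (adjusted p = 0.052, 0.15 and 0.060), under quantile normalization (0.20), with unsorted replicates 1 and 2 averaged (0.22), or without 7 of 8 single replicates (0.21 to 0.29). The cause was not tested. A block for the replicate number gave the same Gfra2 change of 0.25 with an adjusted p of 0.082 and changed no other call. Samples with the same number did not deviate together (12 pairs, r = −0.14 to 0.067, best with their own number in 4 of 24 cases). Leaving out a replicate makes the smallest exact p-value for the ratios 0.057. Depth limits Gfra4 most.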
